A study of Drosophila melanogaster with 4 samples.

Results

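The nucleolar genes described here encode RNA polymerase I subunits, the proteins of small nucleolar ribonucleoproteins (snoRNPs), and factors that process ribosomal RNA and assemble both ribosomal subunits. Their 36 members were named in advance by symbol, with earlier results of these arrays known, and 32 of them had a probe set that the platform annotation assigns to that gene alone, out of 11982 genes so measured. The brightest such probe set by mean over the 4 arrays stood for each gene. hoip has only a probe set shared with pins, and nop5, Nmd3 and Polr1D have none that names them, so these 4 genes were not analysed here.

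The RNA came from pupal eye discs of Drosophila melanogaster, taken roughly 40 h into pupal life from cultures kept at 29 °C, and was measured on Affymetrix arrays. The control animals carried GMR-Gal4, which places the yeast activator Gal4 under a promoter active in the developing eye, and carried no UAS transgene that the labels name. The Yki animals came from GMR-Gal4 crossed to UAS-Yki and so overexpressed Yorkie, the transcriptional coactivator restrained by Hippo signalling. Each group had 2 arrays labelled as biological replicates, and neither the number of animals pooled for an array nor the origin of the UAS-Yki line is stated in the labels. The comparison asks which transcripts differ when Yorkie is raised in the eye, and the number of arrays limits the precision of every value.

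Ribosomes are made mainly in the nucleolus. RNA polymerase I transcribes the ribosomal RNA precursor, snoRNPs guide its chemical modification, and a succession of helicases, GTPases, kinases and scaffold proteins cut and fold it into the small and the large subunit. Expression of these genes follows cellular growth, and in Drosophila many of them are targets of the growth regulator Myc.

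The nucleolar genes were lower in Yki discs almost throughout, by moderate amounts, and none passed the test. The median log2 difference, Yki minus control, was -0.58 over the 32 genes, with a range from -1.27 for Nop10 to 0.07 for Tif-IA, beside a median of -0.01 over all genes. The log2 differences are of log2(intensity + 16). The difference was below 0 for 31 of the 32 genes, where 51.0% of all genes were below 0. Over the 7817 genes whose mean intensity was at least that of the dimmest member, the median was -0.08 and 56.8% were below 0.

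By limma with Benjamini-Hochberg adjustment over all genes, 0 of the 32 were called lower and 0 higher at an adjusted p under 0.05, where the same rule called 0.0835% of all genes lower and 0.0167% higher. The smallest adjusted p among the members was 0.133, for Nop10. At an unadjusted limma p under 0.05, 9 members (28.1%) were lower, where 8.07% of all genes were, and 0 were higher, where 7.19% were. Both Yki arrays lay below both control arrays for 28 of the 32 members (87.5%), where they did for 25.2% of all genes, and above them for 0, where 22.5% of all genes showed this. The members share the same 4 arrays, so these counts are not independent observations. For any single gene, an exact two-sided permutation test over the arrays has a smallest possible p of 0.33, so no single gene can reach 0.05 that way.

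The arrays did not contribute equally. Yki replicate 2 was the lowest of the 4 arrays for 29 of the 32 genes, and the highest array was a control array for all 32. Yki replicate 2 lay below Yki replicate 1 for 30 members, where 49.9% of all genes did so, and the median gap was -0.42 on the log2 scale. Control replicate 2 lay below control replicate 1 for 20 members, with a median gap of -0.04. Without Yki replicate 2 the median difference was -0.38, and 2 members had an unadjusted limma p under 0.05, as did 5.89% of all genes in that direction. Without Yki replicate 1 the median was -0.80, and 16 did, beside 8.14% of all genes. The median was -0.57 without control replicate 1 and -0.60 without control replicate 2. In these fits the lone array of a group is assumed to vary like the other group's.

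**Figure D1:**
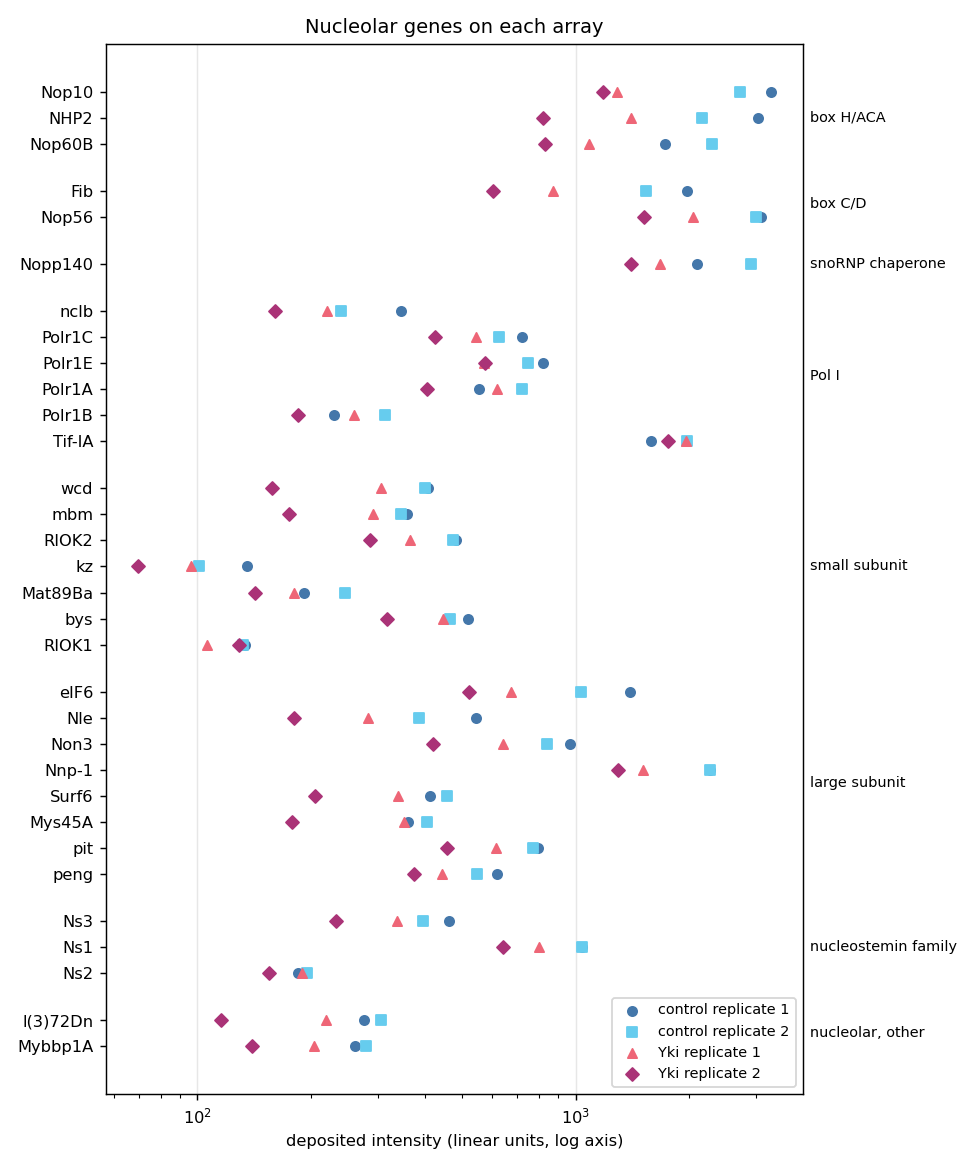
Deposited intensity (linear units on a log axis) of each of the 32 nucleolar genes, grouped by role, with a symbol for each of the 4 arrays. For 28 genes both Yki arrays lie to the left of both control arrays, and Yki replicate 2 is the lowest for 29. Positions compare arrays within a gene and not genes with each other, since probe sets differ in brightness.

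The snoRNP protein genes had the most negative differences of the role groups. Box H/ACA snoRNPs convert uridines of ribosomal RNA to pseudouridine, and Nop10, NHP2 and the pseudouridine synthase Nop60B are 3 of their core proteins. For Nop10 the control arrays read 3294 and 2717 and the Yki arrays 1284 and 1180. The groups did not overlap, with means of 3006 ± 408 and 1232 ± 73.6 (SD, n = 2 each), a log2 difference of -1.27 (SE 0.24) and a limma adjusted p of 0.133.

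NHP2, the RNA-binding protein that contacts Nop10, had 3030 and 2166 in control discs and 1401 and 820 in Yki discs. The groups did not overlap although the arrays within each differed widely, and the log2 difference was -1.24 (SE 0.36, limma adjusted p 0.229). Nop60B had 1722 and 2292 in control discs and 1086 and 832 in Yki discs, a log2 difference of -1.05 (SE 0.28, limma adjusted p 0.214). A second, dimmer Nop60B probe set read 1083 and 987 against 429 and 351, a log2 difference of -1.38 (SE 0.24), so the probe sets of this gene went the same way. Gar1, the remaining core protein of the box H/ACA particle, is not among the members and had 2136 and 1737 in control discs and 856 and 751 in Yki discs (log2 difference -1.25, limma adjusted p 0.137).

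Box C/D snoRNPs add methyl groups to the ribose of ribosomal RNA and include the particle needed for early cleavage of the precursor. Fib encodes fibrillarin, their methyltransferase, and had 1972 and 1538 in control discs and 870 and 605 in Yki discs. The mean was 1755 ± 306 in control discs and 738 ± 187 in Yki discs (SD, n = 2 each), a ratio of 2.38 (log2 difference -1.24, SE 0.29, limma adjusted p 0.175). Nop56, a scaffold protein of the same particle, had 3099 and 3005 in control discs and 2050 and 1516 in Yki discs (log2 difference -0.79, SE 0.26, limma adjusted p 0.271). Its control arrays were close together and the Yki arrays were spread. Nopp140, a phosphoprotein chaperone of both kinds of snoRNP, had 2092 and 2903 in control discs and 1673 and 1404 in Yki discs, a log2 difference of -0.68. Its control arrays differed by more than the gap from the lower of them to Yki replicate 1.

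Together the 5 core snoRNP genes measured had a median log2 difference of -1.24, and each had an unadjusted limma p under 0.05. The median over the other 27 members was -0.55, with 4 such genes. The difference between these subgroups was not tested.

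The genes of RNA polymerase I transcription had the median nearest to 0 of the role groups, -0.38 over 6 genes. Both Yki arrays lay below both control arrays for 3 of them and above for 0. Of all genes, 25.2% had both Yki arrays below and 22.5% had both above, so separated groups were common in either direction. Whether 3 of 6 departs from these shares was not tested. nclb, whose protein is linked to RNA polymerase I at the ribosomal DNA, had 346 and 240 in control discs and 220 and 160 in Yki discs. Polr1C, a subunit shared with RNA polymerase III, had 721 and 628 against 544 and 425. Polr1E, a subunit of the enzyme's initiation and elongation module, had 818 and 750 against 571 and 578, with the Yki arrays close together. These 3 genes had log2 differences of -0.58, -0.47 and -0.44. The ranking by median covers members only. Outside them, Polr1F (-0.85) and TAF1B (-0.80) were further from 0 than any of the 6, and Polr1H was at 0.43.

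The catalytic core showed overlapping groups. Polr1A, the largest subunit, had 554 and 721 in control discs and 619 and 406 in Yki discs, and Polr1B, the second largest, had 230 and 313 against 260 and 185. For both, Yki replicate 1 lay between the control arrays. The difference was above 0 within replicate 1 (0.15 and 0.16) and below 0 within replicate 2 (-0.80 and -0.71). Such differences pair arrays by replicate number only, and the labels name no batch shared by a pair. Tif-IA, the factor that makes the polymerase competent to initiate and through which growth signals act, was the only member with a difference above 0. Its values were 1580 and 1973 in control discs and 1957 and 1756 in Yki discs (log2 difference 0.07, 95% interval -0.56 to 0.70), and its sign turned without control replicate 1 (-0.09) or Yki replicate 1 (-0.01).

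The 7 genes grouped here as factors of the small subunit were intermediate, with a median of -0.44. Both Yki arrays lay below both control arrays for all 7, where they did for 25.2% of all genes. That count includes genes with small gaps between the groups, such as RIOK1 and kz. wcd, homologous to a yeast component of the small-subunit processome, had 406 and 400 in control discs and 305 and 157 in Yki discs (log2 difference -0.83, SE 0.36, limma adjusted p 0.362). Its control arrays were nearly equal, and the Yki arrays differed from each other by more than Yki replicate 1 differed from the controls. mbm, a nucleolar zinc-finger protein known from fly neuroblasts, showed the same picture with 358 and 345 against 292 and 174.

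RIOK2, an atypical kinase of late small-subunit maturation, had 484 and 473 in control discs and 364 and 286 in Yki discs, so both Yki arrays stood clear of a tight control pair. Its relative RIOK1 was nearly level, with 134 and 132 against 106 and 129 (log2 difference -0.16, 95% interval -0.76 to 0.43). The helicase gene kz was the dimmest member, with 135 and 101 against 96.3 and 69.5. The lower control array and the higher Yki array of kz lay close together. bys, which encodes bystin, had 521 and 466 against 445 and 318, and Mat89Ba, the homologue of nucleolar protein NOL6, had 191 and 245 against 180 and 142.

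All 8 large-subunit factors measured had both Yki arrays below both control arrays, where 25.2% of all genes did, with a median log2 difference of -0.69. eIF6, which keeps the immature large subunit from joining the small one, had 1390 and 1033 in control discs and 674 and 524 in Yki discs (log2 difference -0.99, SE 0.28, limma adjusted p 0.224). Nle, which encodes Notchless, a factor bound by the remodelling ATPase of the large subunit and first known as a modifier of Notch, had 544 and 385 against 283 and 180 (log2 difference -0.97, SE 0.33, limma adjusted p 0.283). For both genes the control mean was close to 2-fold the Yki mean, at 2.02 and 2.01. The differences were -1.03 and -0.91 within replicate 1 and -0.96 and -1.03 within replicate 2. Their likeness depends on the pairing by number.

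Non3, homologous to a yeast factor that brings in the particle of the small ribosomal RNA of the large subunit, had 968 and 840 in control discs and 645 and 420 in Yki discs (log2 difference -0.77, SE 0.30, limma adjusted p 0.321). Nnp-1, a homologue of yeast Rrp1, had 2267 and 2270 against 1506 and 1295 (log2 difference -0.69). Its control arrays were almost identical and the gap to the Yki arrays was far wider than the spread within either group. Surf6 had 411 and 458 against 339 and 205, and pit, a DEAD-box helicase known as a Myc target, had 796 and 772 against 616 and 458.

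peng, a Pumilio-like RNA-binding protein, had 619 and 550 in control discs and 443 and 374 in Yki discs. Its difference was -0.47 within replicate 1 and -0.54 within replicate 2. The least clear of the large-subunit genes was Mys45A. This homologue of yeast Sda1 had 360 and 405 against 353 and 178, so Yki replicate 1 was close to the controls and the log2 difference of -0.57 came almost wholly from Yki replicate 2 (-0.03 within replicate 1 and -1.11 within replicate 2).

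The GTPases of the nucleostemin family differed from each other. Ns1, nucleostemin itself, had 1042 and 1040 in control discs and 801 and 643 in Yki discs, and Ns3, which acts on the large subunit in the cytoplasm, had 464 and 396 against 337 and 232. Ns2 was nearly level, at 185 and 195 against 189 and 155 (log2 difference -0.14, 95% interval -0.74 to 0.47), and its groups overlapped. Of the other members, l(3)72Dn had 276 and 307 against 219 and 115 (log2 difference -0.80, SE 0.35, limma adjusted p 0.364) and Mybbp1A, a Myb-binding nucleolar protein, had 261 and 279 against 204 and 140. In both, Yki replicate 2 was far below Yki replicate 1.

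**Figure D2:**
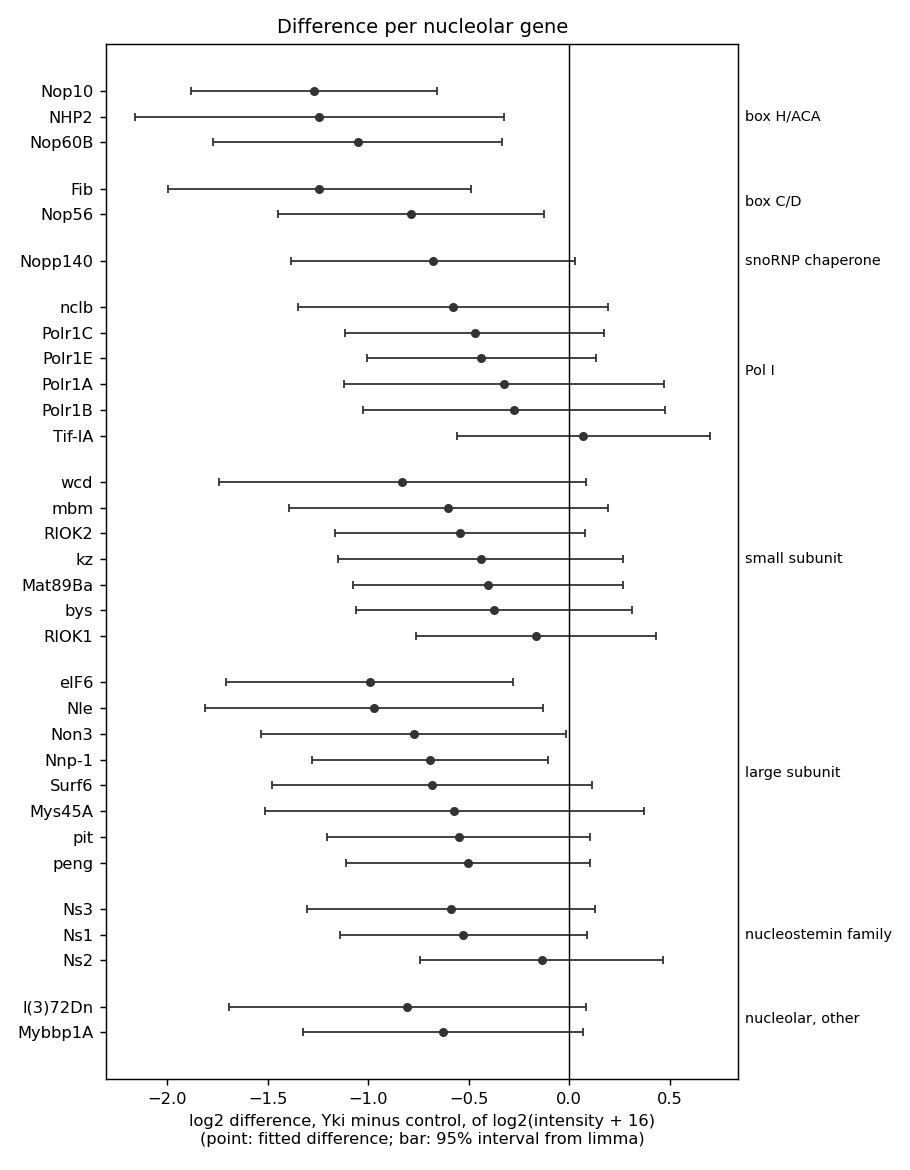
Log2 difference, Yki minus control, of log2(intensity + 16) for each of the 32 genes, grouped by role, with the 95% interval from limma before any adjustment. The interval lies below 0 for 9 genes, among them all 5 core snoRNP genes, and includes 0 for 23.

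Within replicate 1 the difference was below 0 for 28 of the 32 genes, with a median of -0.40, and within replicate 2 for all 32, with a median of -0.80. The medians over all genes were -0.004 and -0.027. Paired by replicate number, Fib, NHP2, Nop10, eIF6 and Nle had differences of similar size in both. By the same pairing, wcd, l(3)72Dn, Mys45A and Surf6 had most of theirs in replicate 2. The labels name no batch shared by same-numbered arrays, whose deviations correlated at 0.059 over genes. Similar sizes in both pairs therefore depend on the numbering and do not measure agreement between replicates. With the replicate number as a block, 0 members were called and 9 were lower at an unadjusted limma p under 0.05, where 7.76% of all genes were.

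**Figure D3:**
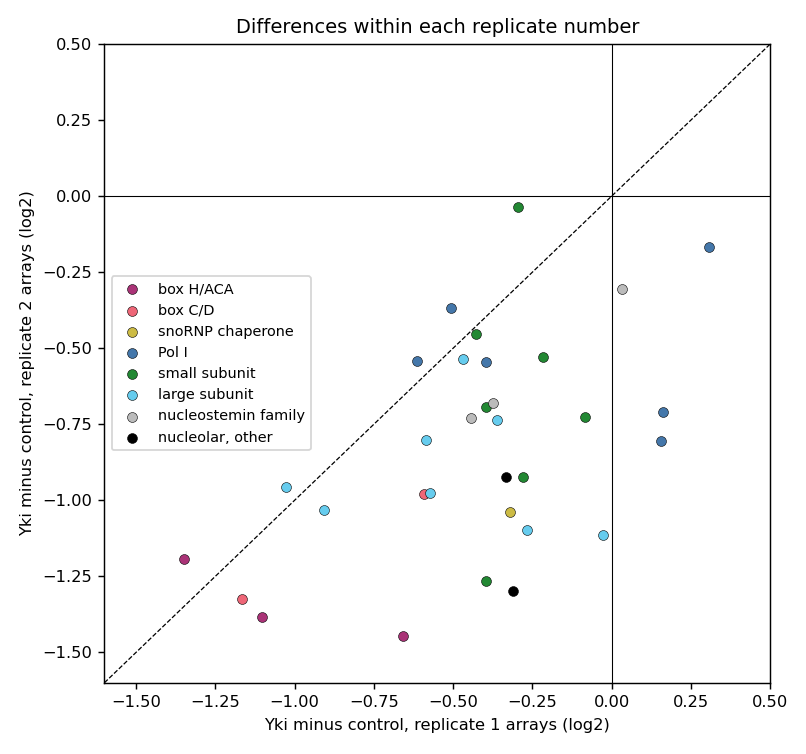
Log2 difference between the Yki and the control array with replicate number 1 (horizontal axis) against that with number 2 (vertical axis), with a point for each of the 32 genes coloured by role. All points lie below 0 on the vertical axis and 28 lie below 0 on the horizontal axis, and most lie under the dashed line of equal differences.

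Other genes of ribosome production were set beside the members. Of all genes, 8.07% were lower at an unadjusted limma p under 0.05, and 25.2% had both Yki arrays below both control arrays. A further 41 nucleolar and assembly genes had a median log2 difference of -0.56, with 40 below 0, 12 with an unadjusted limma p under 0.05 and 0 called, and 33 with both Yki arrays below both control arrays. After Gar1, those with the largest differences were CG8064 (-1.10), l(1)G0020 (-1.03) and CG8545 (-0.89). Without Yki replicate 2 these became -0.69, -0.43 and -0.88, so the order of the 3 rests on that array. The RNA exosome, which trims ribosomal RNA precursors among other RNAs, had a median of -0.60 over 12 genes, 10 of them with groups that did not overlap, led by Rrp40 (-0.92) and Ski6 (-0.91, or -0.59 without control replicate 1), with 4 at an unadjusted limma p under 0.05 and 0 called. Of 3 further RNA polymerase I genes, Polr1F (-0.85) and TAF1B (-0.80) were lower and Polr1H (0.43, or 0.08 without Yki replicate 2) was higher, none of them past the test.

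The structural proteins of the cytosolic ribosome did not show that pattern. Over the 34 cytosolic ribosomal protein genes with a probe set of their own, the median log2 difference was 0.05 and 13 were below 0. Both Yki arrays were below both control arrays for 4 and above them for 4. Within replicate 1, 23 were below 0, and within replicate 2, 5 were. These probe sets were bright, with a median intensity of at least 15547 on every array, and the effect of brightness on the differences was not tested. The mitochondrial ribosomal protein genes leaned the same way as the nucleolar genes by a smaller amount, with a median of -0.21, 56 of 69 below 0, and both Yki arrays below both control arrays for 32 and above them for 5. So did the cytosolic translation factors, with a median of -0.27, 21 of 26 below 0, and 13 with both Yki arrays below and 2 with both above. RNA polymerase III genes had a median of -0.18 over 11 genes. A further 6 RNA polymerase II subunit genes, some of which serve all 3 polymerases, had a median of -0.67. Polr2E, Polr2H and Polr2L are among the shared subunits, and Polr2A to Polr2D, Polr2F and Polr2I were not measured. That median therefore does not stand for RNA polymerase II alone. Genes of cell division had a median of -1.30 over 22 genes, and both Yki arrays lay below both control arrays for all 22. limma called 0 genes of these lists. At an unadjusted limma p under 0.05, 20 cell division genes and 3 RNA polymerase II genes (Polr2H, Polr2E and Polr2L) were lower. So were 1 RNA polymerase III gene (9.09% of its list) and 2 mitochondrial ribosomal protein genes (2.90%), where 8.07% of all genes were lower and 7.19% higher. Higher at that threshold was 1 mitochondrial ribosomal protein gene, while 0 cytosolic ribosomal protein genes and 0 translation factors passed in either direction. The differences between lists were not tested.

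**Figure D4:**
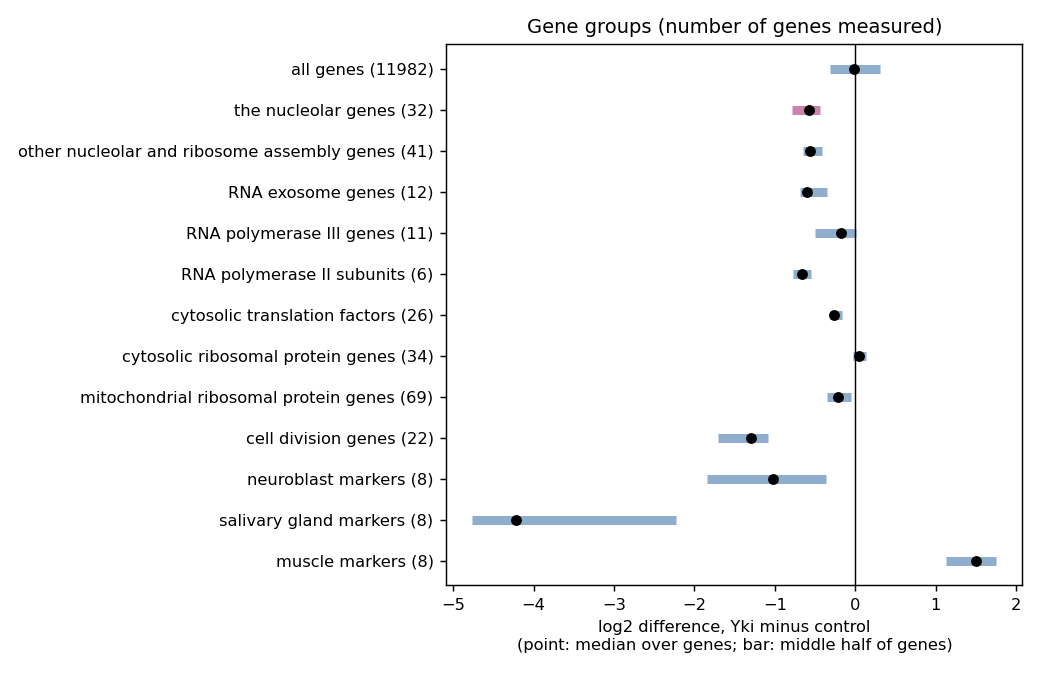
Median log2 difference, Yki minus control (point), and the range of the middle 50% of genes (bar) for the nucleolar genes and for other gene groups, with the number of genes measured. The nucleolar genes, at a median of -0.58, lie near the other assembly genes (-0.56) and the exosome genes (-0.60), while cytosolic ribosomal protein genes (0.05) lie near the median of all genes.

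Markers of other cell types also differed in level between the groups, though limma called 0 of them in either direction (smallest adjusted p 0.0792, for dpn). The salivary gland list summed to an intensity of 25682 and 21625 in control discs and of 2234 and 589 in Yki discs, with 7 of 8 genes below 0. Both Yki arrays were below both control arrays for its 6 glue genes. The brightest, Sgs7, had 11010 and 9347 against 799 and 187. Sgs4 (15.9 on Yki replicate 2) and Sgs1 (6.61 and 2.73) were at or below the added constant of 16 in Yki discs. The size of their differences therefore depends on that constant. Its transcription factors fkh (0.14) and sage (-1.04) had overlapping groups. Like the nucleolar genes, the list was lower on Yki replicate 2 than on Yki replicate 1. All 8 neuroblast markers were below 0, with sums of 5436 and 7898 against 4031 and 4885, and dpn had a log2 difference of -2.08, ase of -1.79 and mira of -1.67. The largest part of each sum was grh, with 2951 and 4880 against 2401 and 3551. Differences were small for grh (-0.38), insc (-0.37), klu (-0.32) and pros (-0.20). The groups overlapped for 3 of the 8, and klu and pros were above 0 within replicate 1. wor had 147 and 105 against 44.2 and 4.38, so its difference of -2.00 rests on dim Yki values and became -1.22 without Yki replicate 2. Muscle markers went the opposite way, above 0 in 8 of 8 cases, with sums of 7829 and 14164 against 23068 and 37360. Haemocyte markers summed to 1953 and 2485 against 2059 and 2049, with 5 of 7 below 0, and fat body markers to 44128 and 31578 against 31158 and 29346, with 4 of 4 below 0. No marker of these lists was listed at 0 on any array. Their part in the differences of the nucleolar genes was not tested, and in a whole disc fewer cells with active nucleoli and less of these transcripts per cell cannot be told apart.

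The labelled tissue and genotype were checked in the same values. The overexpressed gene yki had 1285 and 1261 in control discs and 26417 and 26183 in Yki discs (log2 difference 4.35, limma adjusted p 0.0251). Fits without any 1 array gave 4.34 to 4.37 and lost the call (adjusted p 0.0951 to 0.279). The 10 photoreceptor and eye markers had intensities from 42.0 to 25451 on single arrays, with a median log2 difference of 0.24 and 8 above 0. Among them the eye transcription factor gl had 2950 and 3959 in control discs and 2456 and 3364 in Yki discs. The photoreceptor surface protein chp had 3768 and 4364 against 6679 and 7749. Larger differences in this list were those of trp (2.065), Pdh (1.643) and sv (-1.186), and limma called 0 of the 10 genes. Across probe sets, which are not independent replicates, log2 values correlated at 0.9745 between the control arrays, at 0.973 between the Yki arrays and at 0.945 to 0.962 between arrays of different groups.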

How the data were processed

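Total RNA from pupal eye discs was hybridised as biotinylated cRNA to Affymetrix Drosophila Genome 2 arrays, 1 sample an array, per the labels' protocols. The deposited values are linear intensity values. The submitters' processing notes name Affymetrix Expression Console and the series design names dChip, while the summarisation method is not given in the sources used here. Each deposited column has a mean of 500.0 once 2% of probe sets are trimmed at both ends, so a rise of many bright transcripts on an array lowers the others. The table held 18952 probe sets and 0 unused columns. Of these, 183 were controls, 13647 had 1 gene symbol in the platform annotation, 402 had several and 4720 none. RefSeq gene identifiers (Release 6 plus ISO1 MT) matched 13544 and changed 0 symbols.

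limma 3.58.1 (R 4.3.3; lmFit, eBayes) was fitted to log2(intensity + 16) with group as the only term over 18769 probe sets, with 2 residual and 3.03 prior degrees of freedom. Adjustment ran over 11982 genes. The fit was also run on simulated arrays with known changes and noise drawn independently for each probe set. Those arrays held no shift shared by many genes, so they do not cover a pattern such as that of Yki replicate 2.

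Members and lists were chosen with earlier results of these data known, and the cell division list and ribosomal protein patterns were added after the table was opened. By the naming rule, values are given for members whose groups do not overlap or with an unadjusted p under 0.05 and for the 4 nearest to or above 0, full statistics for the 10 with the largest differences, and up to 4 genes per other list. Polr1A was added to account for all members, and gl, Sgs1, fkh, sage, grh, insc, klu and pros are named beyond the 4 of their lists. Replicate numbers come from the labels, which name no shared batch, and deviations of same-numbered arrays correlated at 0.059 over genes. Alternatives were other pseudocounts (1 and 64), scalings, a filter at a mean of 50, other moderation, the replicate block, each array left out, all probe sets of a gene averaged, and adjustment over all probe sets. The planned description of promoter motifs was not made, since no sequence was used here.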

Additional observations from a re-analysis of the deposited data

How the results depend on the processing

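The median log2 difference of the nucleolar genes stayed below 0 in every setting tried, between -0.80 without Yki replicate 1 and -0.38 without Yki replicate 2. No member was called higher in any setting. With array medians subtracted, 3 members were called lower (Nop10, Fib and NHP2, adjusted p 0.0338 to 0.0405), where the same setting called 408 genes lower, or 3.41% of all. Their differences hardly moved, for Nop10 from -1.271 as reported to -1.306. Among the named genes, the adjusted p of that setting followed the size of the difference alone, down to 1.274e-29 for Sgs4. A gene's own spread between arrays therefore did not enter these calls, and they are not stronger evidence for the 3 members. In each of the other settings run 0 members were called lower. The number lower at an unadjusted limma p under 0.05 was 9 as reported, where 8.07% of all genes were. It was 5 with a pseudocount of 1, beside 5.72% of all genes, and 16 with a pseudocount of 64, beside 10.1%. Over all genes 12 were called as reported, 0 with a pseudocount of 1, 2 with 64, 796 with array medians subtracted, 20 with quantile normalization, 60 with dim probe sets left out, 58 with trended and robust moderation, 27 with probe sets averaged, 3 with adjustment over all probe sets and 0 with any array left out. With the replicate block 65 genes were called over all, 0 of them members. Named genes that are no members gained a call in 4 settings. These were 21 with array medians subtracted, among them Gar1 (adjusted p 0.0394), dpn, Incenp and Pdh. They were Sgs4, Sgs5, Sgs7 and Sgs8 with the replicate block (adjusted p 0.0186 to 0.0472), dpn, Sgs5 and Sgs8 with dim probe sets left out (0.0492), and Sgs5 and Sgs8 with trended and robust moderation (0.0423 and 0.0426). The difference of wor was -3.01 with a pseudocount of 1 and -1.13 with 64, and that of Sgs4 -5.57 and -4.13. Among single genes, the sign turned only in fits that left out an array. With each array left out in turn, the difference ran from -0.089 to 0.229 for Tif-IA (-0.008 without Yki replicate 1), from -0.792 to 0.023 for Fbp2, from -0.233 to 0.021 for Lsp2 and from -1.489 to 0.021 for Hml. The call of yki was lost with a pseudocount of 1 (4.37, adjusted p 0.149) and with any array left out (4.34 to 4.37), while its size held. The cause of these changes was not tested.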
